A study of Homo sapiens with 5 samples.

Results

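The lysosome and V-ATPase genes described here are 37 genes listed by name for their products: subunits and accessory proteins of the vacuolar proton pump, lysosomal hydrolases, proteins of the lysosomal membrane and lumen, and the transcription factors TFEB and TFE3. Of the 37 genes, 35 were rows among the 27328 Ensembl genes of the count table and 34 had enough counts to be tested. *ATP6V0C* and *CD68* were not analysed here. *CTSZ* was counted but lay below the filter on low counts. Gene expression was measured by RNA-seq in TF-1, a human AML cell line whose growth depends on a cytokine, in 5 libraries of logarithmically growing cells. The controls, 2 libraries, were sgCtrl pools 1 and 2, in which the sgRNA was directed against the *Renilla luciferase* gene, a sequence absent from human cells. The knockout of *MTSS1* was represented by 3 libraries, from the pools sgMTSS1_1, sgMTSS1_2, and sgMTSS1_3, each made with its own sgRNA against *MTSS1*, the gene of a scaffold protein that binds membranes and actin. Each pool combined 4 single-cell clones, so that a replicate is a mixture of 4 clones and, in the knockout, sgRNA and pool cannot be told apart. Loss of the protein in these clones was checked by the authors by immunoblot. In bulk RNA such as this, fewer cells expressing a gene and less of its RNA per cell cannot be told apart either.

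The lysosome is the acidic compartment in which cells break down proteins, glycans, lipids, and nucleic acids, and its contents are made acidic by the vacuolar H+-ATPase, or V-ATPase. This pump has a cytosolic V1 sector, in which A and B subunits hydrolyse ATP around a central rotor and peripheral stalks, and a V0 sector in the membrane, through which the protons pass. Most soluble hydrolases work best at low pH, and many lysosomal and V-ATPase genes are known targets of TFEB and TFE3, transcription factors of the MiT/TFE family that bind a palindromic E-box called the CLEAR element when lysosomes or nutrients are disturbed. In myeloid cells, lysosomal proteins also serve granules, phagosomes, and secretory vesicles.

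The E-box is shown here because it is the sequence by which TFEB and TFE3 recognize their known targets. Promoter windows of 300 bases, from 250 bases before to 50 bases after each transcription start, were taken from RefSeq on GRCh38.p14. Of the 37 genes, 28 had at least 1 window, and *HEXA*, *ATP6V1B2*, *CTSB*, *ATP6V1C1*, *LAMP2*, *ATP6V1H*, *PSAP*, *ATP6V0E1*, and *ATP6V1A* did not match. Each window was searched for the core CACGTG, for the core with a flanking T on either strand (TCACGTG), and for the complete palindrome GTCACGTGAC. Each longer motif contains the shorter ones. Over all 35116 RefSeq windows, 7.26% held the core, 3.71% the flanked core, and 0.353% the complete palindrome. Per gene, these shares were 8.77%, 4.49%, and 0.421% of 27305 genes. Among the 28 matched members, 8 held the core, 7 the flanked core, and 2 the complete palindrome. The stretches of 70 bases printed here hold the matches of these 8 members, written 5′ to 3′ along the strand of the gene, with the motif in capitals:
*ATP6V0B*, chr1:43974879-43974948, plus strand: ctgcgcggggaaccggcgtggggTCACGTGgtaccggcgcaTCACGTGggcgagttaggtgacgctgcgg
*ATP6V0D1*, chr16:67481179-67481248, minus strand: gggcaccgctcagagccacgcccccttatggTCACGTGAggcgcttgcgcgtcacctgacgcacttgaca
*ATP6V1G1*, chr9:114587679-114587748, plus strand: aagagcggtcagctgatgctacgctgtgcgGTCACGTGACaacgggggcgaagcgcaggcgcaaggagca
*CTSA*, chr20:45891269-45891338, plus strand: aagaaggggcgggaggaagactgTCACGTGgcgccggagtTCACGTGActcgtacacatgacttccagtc
*CTSD*, chr11:1763937-1764006, minus strand: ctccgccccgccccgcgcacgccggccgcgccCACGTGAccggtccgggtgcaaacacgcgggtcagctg
*GAA*, chr17:80101495-80101564, plus strand: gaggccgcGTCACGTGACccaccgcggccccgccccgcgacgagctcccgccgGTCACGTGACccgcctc
*LAMP1*, chr13:113297039-113297108, plus strand: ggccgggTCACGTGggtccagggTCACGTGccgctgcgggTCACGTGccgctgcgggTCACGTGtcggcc
*CD63*, chr12:55729152-55729221, minus strand: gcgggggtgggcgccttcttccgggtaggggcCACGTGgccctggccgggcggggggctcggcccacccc
*GAA* carried the complete palindrome at 2 places and *ATP6V1G1* at 1. *LAMP1* had 6 flanked cores, of which 4 are printed, while *ATP6V0B* and *CTSA* had 2 each. *CD63* had the core without a flanking T, in 1 of its 8 start windows. Of the 16 cores, 11 lay within 80 bases upstream of the start. A match is a description of the sequence and says nothing about binding in these cells.

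**Figure D1:**
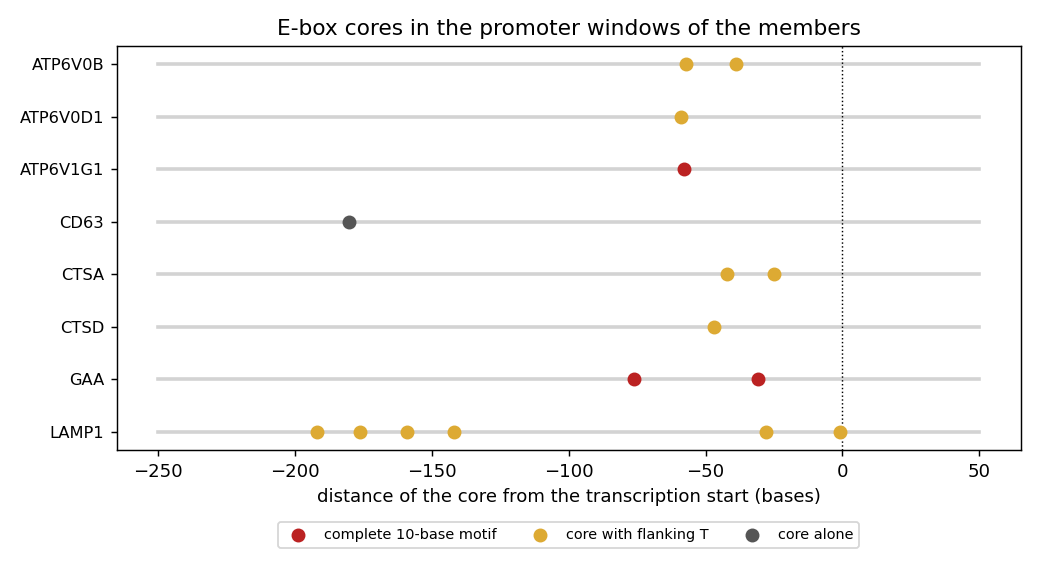
Each grey line is the promoter window of 1 gene, with the distance of the motif's core from the transcription start on the x axis in bases, and each point is 1 core. The complete palindrome (red) occurs in *ATP6V1G1* and *GAA*, the flanked core (yellow) in *ATP6V0B*, *ATP6V0D1*, *CTSA*, *CTSD*, and *LAMP1*, and the core alone (dark grey) in *CD63*.

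The libraries held 2849979 and 3408827 counts in the control and 5442639 to 8854899 counts in the knockout pools, so that each knockout library was deeper than both controls. sgCtrl pool 1 stood apart by its share of mitochondrially encoded transcripts, 13.9% of counts against 6.71 to 8.63% in the other libraries. Ribosomal protein genes took 7.46 and 9.20% of counts in the control and 11.8 to 17.6% in the knockout pools. *MTSS1* itself was at 203 and 87.4 CPM (counts scaled to a common library size with TMM factors) in the control and at 103, 138, and 49.7 CPM in the knockout pools, with a log2-fold change of −0.58 ± 0.47 (SE) and an adjusted p of 0.494. The sgRNAs of sgMTSS1_1 and sgMTSS1_2 target the first exon, while the reads come from 3′ ends, and the reads therefore do not check the knockout. Progenitor and erythroid markers were present throughout, all 8 of 8, with summed levels of 1083 to 1254 CPM in the control and 1455 to 2057 CPM in the knockout pools. Of 9 monocyte and macrophage markers, 3 were in the table, *CD14*, *CSF1R*, and *MRC1*, and their summed level was 2.07 to 2.48 CPM in the control and 1.03 to 1.26 CPM in the knockout pools. Mast cell and basophil markers, 5 of 6 in the table, summed to 399 to 750 CPM in the control and 554 to 804 CPM in the knockout, and 4 of 6 lymphocyte markers to 9.93 to 14.2 and 5.03 to 10.9 CPM.

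To ask how loss of *MTSS1* went along with lysosomal gene expression, the 3 knockout pools were compared with the 2 control pools. Of the 34 members tested, 3 rose in the knockout: *ATP6V1B2* and *ATP6V1E1*, both subunits of the V1 sector, and *CD63*, a tetraspanin of late endosomes, lysosomes, and secretory granules. No member fell. A gene was called when its adjusted p in edgeR's quasi-likelihood test was below 0.05 and its level differed more than 2-fold. These 3 genes are 8.82% of the members tested, while 4.17% of all 14391 genes tested were called higher and 1.01% lower, 5.18% in all. Without the 2-fold threshold the counts were 3 and 0 as well. At an unadjusted p below 0.05, 8 members were higher and 2 lower, against 14.1% and 9.23% of all genes tested. All knockout pools lay above both control pools for 15 members and below both for 3, against backgrounds of 22.2% and 19.2% of all genes tested, and the groups overlapped for the remaining 16. The log2-fold change was above 0 for 25 members and below 0 for 9, with a median of 0.31 and a range from −1.12 to 2.53. The median over all genes tested was −0.03. *ATP6V1B2* was called with each knockout pool left out in turn. It was the only member called without sgMTSS1_1 or without sgMTSS1_3, where 0.801% and 1.38% of all genes were called higher. Without sgMTSS1_2, 3 members were called higher, against 2.41% of all genes. Leaving out a control pool leaves 1 control, so that the spread between controls is no longer measured. For the members, only log2-fold changes are therefore given for these fits. The members' median was 0.45 without sgCtrl pool 1 and 0.57 without sgCtrl pool 2.

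**Figure D2:**
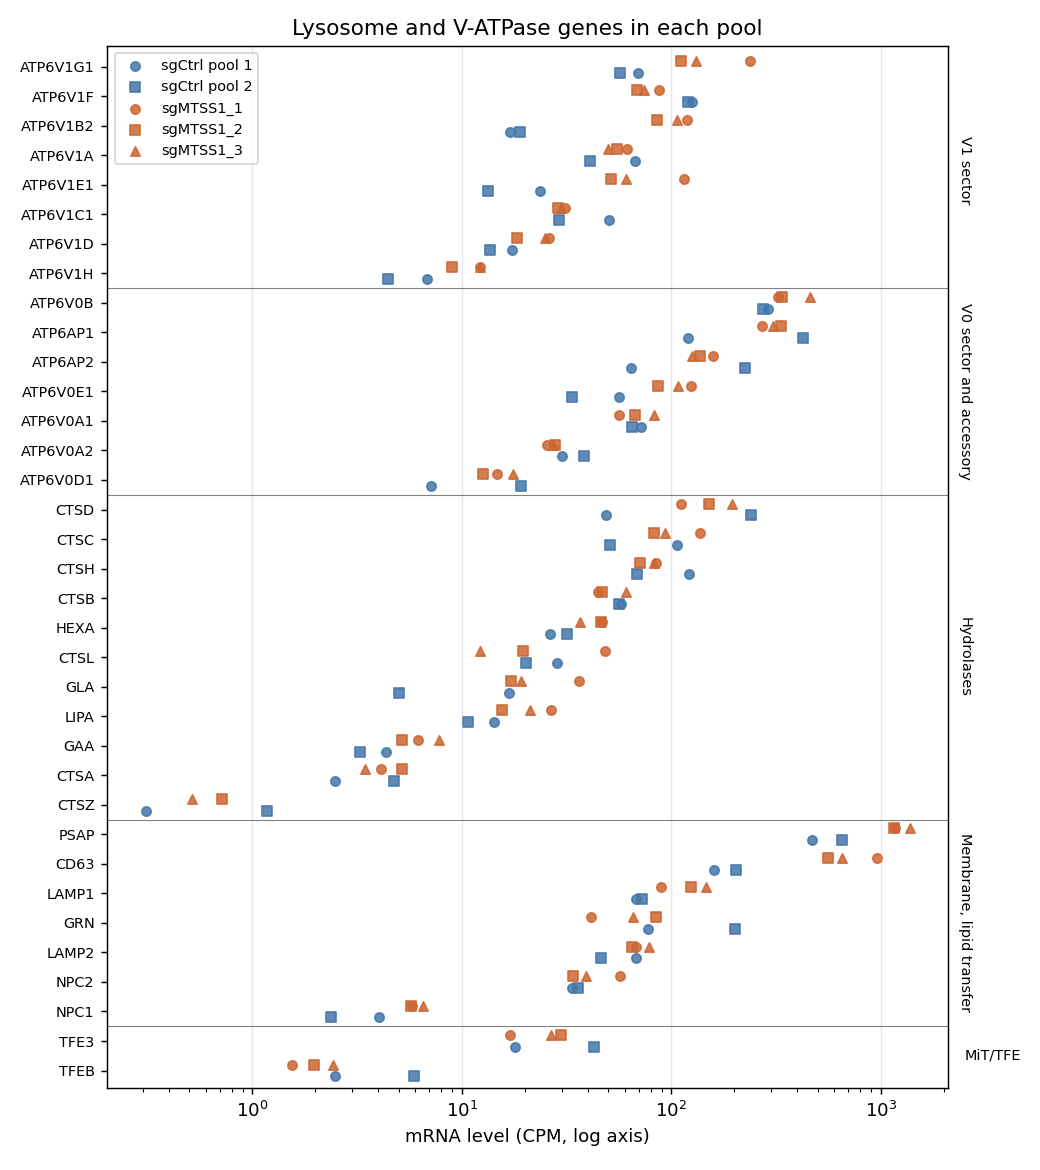
Levels of the 35 counted members in each pool in CPM on a log axis, with control pools in blue and knockout pools in orange and 1 symbol per pool. *ATP6V1B2*, *ATP6V1E1*, and *CD63* show the widest gaps between the groups, and *CTSZ*, at 0 in sgMTSS1_1, has no symbol for that pool.

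Together the counted members took 0.265% of all counts in sgCtrl pool 1 (95% Wilson interval 0.259 to 0.271) and 0.311% in sgCtrl pool 2 (0.305 to 0.317). In the knockout pools they took 0.405% (0.400 to 0.409), 0.406% (0.401 to 0.411), and 0.453% (0.448 to 0.459). All knockout pools thus lay above both controls. Such intervals reflect counting error alone and hold no spread between pools. PCR copies of 1 molecule were not told apart, so that even for counting error the intervals may be too narrow. The V-ATPase genes accounted for less of this gap, with shares of 0.115 and 0.137% in the control against 0.146, 0.147, and 0.161% in the knockout pools, than the other members, with 0.150 and 0.174% against 0.259, 0.259, and 0.292%. *PSAP* and *CD63* alone made up most of the counts of the latter group in the knockout, with 9061 and 7447 counts in sgMTSS1_1 of a total of 22921. In sgCtrl pool 1 they had 1507 and 517 counts of 4279, and in sgCtrl pool 2 they had 2206 and 690 counts of 5937. The gap of the other members rested on this pair. With both genes taken out, the shares of the remaining other members overlapped between the groups.

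**Figure D3:**
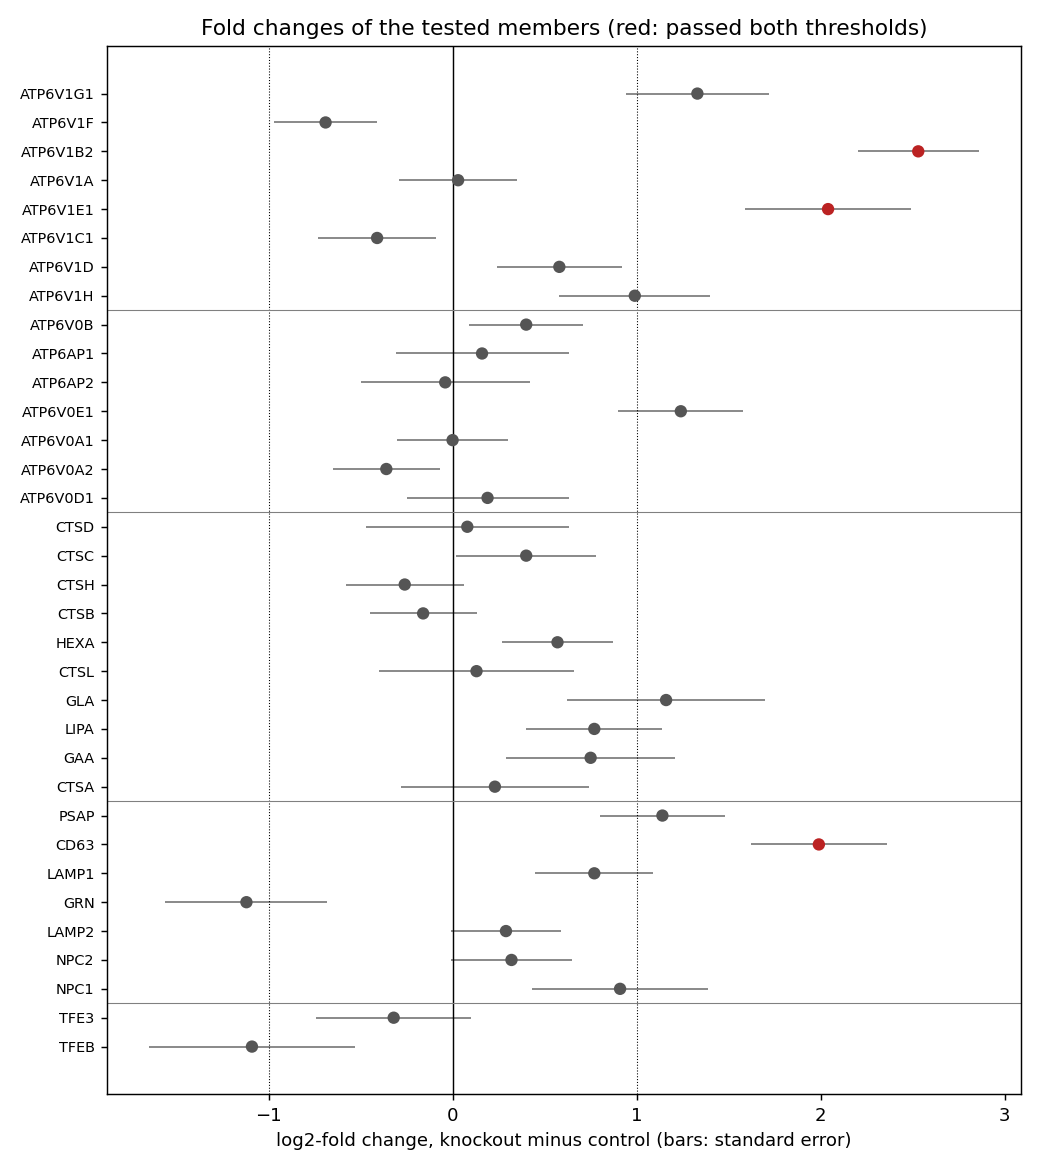
Log2-fold changes of the 34 members tested, knockout minus control, with bars for the standard error and dotted lines at 2-fold. The 3 genes in red, *ATP6V1B2* at 2.53, *ATP6V1E1* at 2.04, and *CD63* at 1.99, passed both thresholds, and the point farthest below 0 is *GRN* at −1.12.

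Within the V1 sector, 2 of 8 subunits rose, none fell, and the median log2-fold change was 0.78. Over all genes tested, 4.17% were called higher and 1.01% lower, with a median of −0.03. *ATP6V1B2* (chr8:20197381-20226819, GRCh38, plus strand) encodes the B subunit of most tissues, which forms the catalytic head together with the A subunit. Its level was 17.1 and 19.0 CPM in the control pools and 119, 85.6, and 107 CPM in the knockout pools sgMTSS1_1, sgMTSS1_2, and sgMTSS1_3. Every knockout pool was thus more than 4-fold above both controls, and the log2-fold change was 2.53 ± 0.33 (SE; 5.76-fold, adjusted p = 0.00754). Over all alternatives run it ranged from 2.35 to 2.69, and it stayed called in those with both control pools. *ATP6V1E1* (chr22:17592136-17628749, minus strand) encodes the E subunit of the peripheral stalks that hold the head in place. It was at 23.6 and 13.3 CPM in the control and at 115, 51.5, and 60.7 CPM in the knockout pools. The groups did not overlap, sgMTSS1_1 stood highest, and the log2-fold change was 2.04 ± 0.45 (adjusted p = 0.0357). The call of *ATP6V1E1* was lost without sgMTSS1_1 (1.59, adjusted p = 0.0991) and without sgMTSS1_3 (2.23, adjusted p = 0.0666). Its log2-fold change was 2.52 without sgCtrl pool 1 and 1.71 without sgCtrl pool 2.

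None of the remaining V1 subunits passed the test. Of these 6, 3 lay above both controls in every knockout pool, as did 22.2% of all genes tested. *ATP6V1A*, the catalytic partner of *ATP6V1B2*, was at 67.6 and 40.9 CPM in the control and at 61.3, 55.3, and 49.8 CPM in the knockout pools, so that the groups overlapped (log2-fold change 0.03 ± 0.32, adjusted p = 0.968). Counted within each library, there were 0.252 and 0.464 counts of *ATP6V1B2* per count of *ATP6V1A* in the control, against 1.95, 1.55, and 2.15 in the knockout pools. This ratio, chosen after the values had been seen, does not depend on the scaling between libraries. *ATP6V1G1*, another stalk subunit, was at 69.5 and 57.2 CPM in the control and at 237, 111, and 131 CPM in the knockout, above in each pool, but at 1.33 ± 0.39 it missed the threshold (adjusted p = 0.0788), which it passed with DESeq2 and without the filter on low counts. *ATP6V1D*, of the rotor, and *ATP6V1H*, a regulatory subunit, lay above the controls in each knockout pool as well, with log2-fold changes of 0.58 and 0.99 and adjusted p values of 0.340 and 0.186. *ATP6V1C1*, a stalk subunit, overlapped, at −0.41. *ATP6V1F*, a small rotor subunit, lay in the opposite direction, at 126 and 121 CPM in the control and 87.1, 68.8, and 74.2 CPM in the knockout pools. All knockout pools were below both controls, at −0.69 ± 0.28 and an adjusted p of 0.172, and with offsets for GC content and length the gene passed the test at −1.01 (adjusted p = 0.0388). *ATP6V1E1* and *ATP6V1G1* have 3 and 7 named pseudogenes in GENCODE release 44, whose reads cannot always be told from theirs. *ATP6V1F* overlaps *KCP* and *ATP6V1D* overlaps *PALS1* on the opposite strand, and whether strand was used in counting is not given in the sources used here.

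None of the 7 V0 and accessory genes tested passed the test, and their median log2-fold change was 0.16. *ATP6V0B*, a proteolipid subunit of the proton-conducting ring and the V-ATPase gene with the highest level, was at 291 and 276 CPM in the control and at 325, 340, and 458 CPM in the knockout pools. The groups did not overlap, but their distance was small beside the spread of the knockout pools (0.40 ± 0.31, adjusted p = 0.480). *ATP6V0E1*, a small membrane subunit, was at 56.2 and 33.5 CPM in the control and at 125, 86.4, and 108 CPM in the knockout pools. It did not overlap either and missed the threshold at 1.24 ± 0.34 (adjusted p = 0.0673), and it passed it with DESeq2 and without the filter on low counts. Its log2-fold change was 1.68 without sgCtrl pool 1 and 0.94 without sgCtrl pool 2. *ATP6V0A2*, 1 of the large a subunits, was the other way round, at 30.1 and 38.5 CPM in the control and 25.5, 27.8, and 27.2 CPM in the knockout pools (−0.36 ± 0.29, adjusted p = 0.503). Its paralogue *ATP6V0A1* overlapped, at 72.0 and 65.1 CPM against 56.1, 67.3, and 83.2 CPM, with a log2-fold change of 0.00. *ATP6V0D1*, which links the ring to the rotor, overlapped too, at 0.19 ± 0.44. *ATP6V0E1* has 4 named pseudogenes, and the genes *SNORA74B* and ENSG00000254328 lie across it on the same strand.

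The accessory proteins *ATP6AP1* and *ATP6AP2*, which take part in assembly of the pump and of which the latter is also the prorenin receptor, differed mainly between the controls. *ATP6AP1* was at 120 CPM in sgCtrl pool 1 and 425 CPM in sgCtrl pool 2, a ratio of 3.55, with the knockout pools in between at 271, 336, and 306 CPM. *ATP6AP2* was at 64.2 and 225 CPM in the control, a ratio of 3.50, and at 158, 138, and 126 CPM in the knockout pools. For both genes, the direction of the difference thus depends on the control pool. *ATP6AP1* had a log2-fold change of 1.37 without sgCtrl pool 2 and of −0.47 without sgCtrl pool 1. Over the members tested, 9 of 34 (26.5%) differed more than 2-fold between the control pools, close to the 29.6% of all genes with a count in both. The highest and lowest knockout pools differed more than 2-fold for 5 members (14.7%), against 24.6% of all such genes.

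Several V-ATPase subunits are encoded by paralogues, and their relative use was compared within each library, as the share of a pair's counts. The pairs were chosen after the values had been seen, so these shares are a description without a test. *ATP6V1E1* made up 54.7% of the counts of *ATP6V1E1* and *ATP6V1E2* in sgCtrl pool 1 (Wilson interval 46.4 to 62.7) and 59.2% in sgCtrl pool 2 (48.0 to 69.6). In the knockout pools its share was 91.1% (89.2 to 92.8), 82.0% (77.6 to 85.7), and 86.7% (83.0 to 89.6), above both controls in each. *ATP6V1E2* itself was at 19.5 and 9.18 CPM in the control and between 9.34 and 11.3 CPM in the knockout pools. *ATP6V0E1* took 83.8% and 54.9% of its pair with *ATP6V0E2* in the control, against 93.4, 82.1, and 90.4% in the knockout, so that the groups overlapped. *ATP6V0A1* took 70.5 and 62.9% of its pair with *ATP6V0A2* in the control, against 68.7, 70.8, and 75.4% in the knockout, also with overlap.

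**Figure D4:**
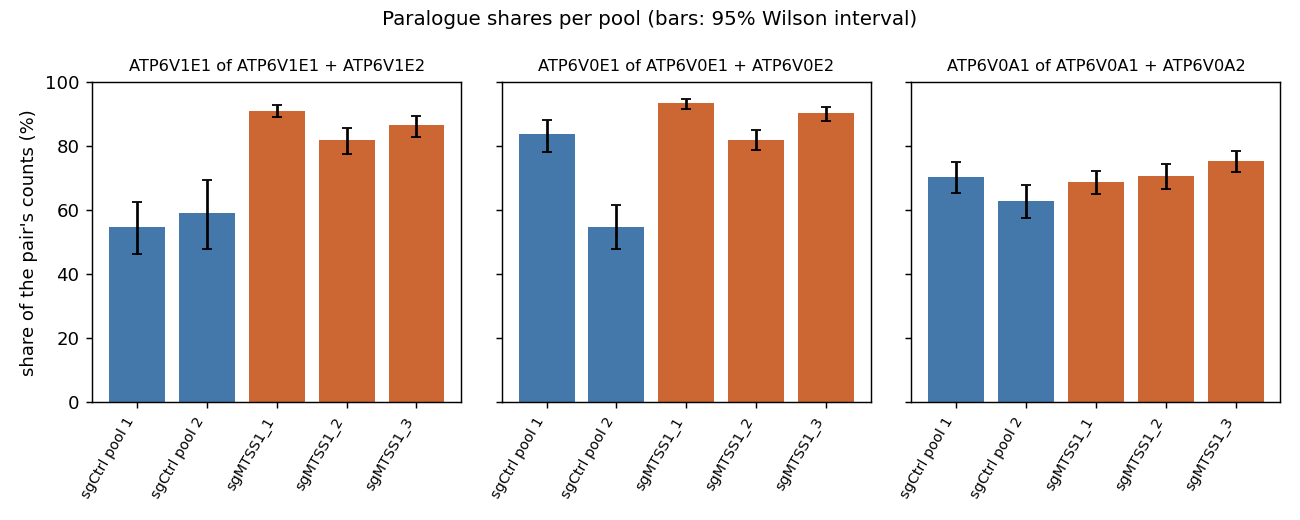
Share of the first gene in the counts of each paralogue pair (y axis, percent), by pool, with 95% Wilson intervals as error bars, control pools in blue and knockout pools in orange. The share of *ATP6V1E1* was 54.7 and 59.2% in the control and 82.0 to 91.1% in the knockout pools, while the groups overlap in the other pairs.

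None of the 10 hydrolases tested passed the test, and their median log2-fold change was 0.32. For 4 of them, all knockout pools lay above both controls, as they did for 22.2% of all genes tested. *GLA*, the alpha-galactosidase that is deficient in Fabry disease, was at 16.8 and 5.03 CPM in the control and at 36.2, 17.2, and 19.2 CPM in the knockout pools (1.16 ± 0.54, adjusted p = 0.234), with sgCtrl pool 1 next to sgMTSS1_2. Its log2-fold change was 2.28 without sgCtrl pool 1 and 0.56 without sgCtrl pool 2. *LIPA*, the acid lipase, *GAA*, the acid alpha-glucosidase, and *HEXA*, a beta-hexosaminidase subunit, had log2-fold changes of 0.77, 0.75, and 0.57 and adjusted p values of 0.253, 0.367, and 0.292. *GLA* overlaps *RPL36A*, *HEXA* overlaps *HEXA-AS1*, and *LIPA* overlaps *IFIT1*, *IFIT2*, and *IFIT3*, each on the opposite strand.

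The cathepsins among the members, most of which are proteases of the lysosomal lumen, overlapped between the groups without exception. *CTSD*, an aspartic protease, differed most between the controls, at 48.7 CPM in sgCtrl pool 1 and 240 CPM in sgCtrl pool 2, a ratio of 4.93, and the knockout pools lay between them at 112, 152, and 195 CPM (0.08 ± 0.55, adjusted p = 0.946). Without sgCtrl pool 2 its log2-fold change was 1.68, and without sgCtrl pool 1 it was −0.64. *CTSC*, which activates granule proteases, was at 0.40, *CTSH* at −0.26, *CTSB* at −0.16, *CTSL* at 0.13, and *CTSA*, a carboxypeptidase that also protects other hydrolases, at 0.23. *CTSL* spread most among the knockout pools, from 12.3 CPM in sgMTSS1_3 to 48.2 CPM in sgMTSS1_1. *CTSL* has 6 named pseudogenes, and the gene ENSG00000250644 lies across *CTSD* on the same strand. *CTSZ* had 1 and 4 counts in the control and 0, 4, and 3 counts in the knockout pools, at or near the 3 counts taken as the detection limit, and no fold change is given.

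Among the membrane and lipid transfer proteins, 1 of 7 rose and the median was 0.77. Over all genes tested, 4.17% were called higher and the median was −0.03. *CD63* (chr12:55725323-55729707, minus strand) was at 160 and 204 CPM in the control and at 961, 561, and 656 CPM in the knockout pools. Every knockout pool was above both controls, with sgMTSS1_1 highest, and the log2-fold change was 1.99 ± 0.37 (3.97-fold, adjusted p = 0.0215). The call of *CD63* was lost without sgMTSS1_1 (1.73, adjusted p = 0.0672) and without sgMTSS1_3 (2.09, adjusted p = 0.0700). The antisense gene *CD63-AS1* overlaps it. *LAMP1* and *LAMP2*, the abundant glycoproteins of the lysosomal membrane, did not pass the test. *LAMP1* was at 68.0 and 72.5 CPM in the control and at 89.4, 125, and 147 CPM in the knockout pools, without overlap (0.77 ± 0.32, adjusted p = 0.180), and *LAMP2* overlapped at 0.29. Within each library there were 2.36 and 2.82 counts of *CD63* per count of *LAMP1* in the control, against 10.7, 4.48, and 4.47 in the knockout pools, a ratio chosen after the values had been seen.

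*PSAP*, the precursor of the saposins that help hydrolases reach sphingolipids, had the highest mean level of all members. It was at 468 and 653 CPM in the control and at 1169, 1159, and 1378 CPM in the knockout pools (chr10:71816298-71851251, minus strand). Although the groups did not overlap and the knockout pools lay close together, the log2-fold change of 1.14 ± 0.34 missed the threshold (adjusted p = 0.0876). *PSAP* passed the test with DESeq2 and without the filter on low counts. Its log2-fold change was 0.93 without sgCtrl pool 1 and 1.43 without sgCtrl pool 2. *GRN*, the progranulin precursor, which binds prosaposin on the way to the lysosome, had the largest negative log2-fold change. It was at 77.3 and 201 CPM in the control and at 41.4, 84.6, and 66.1 CPM in the knockout pools, so that sgMTSS1_2 was above sgCtrl pool 1 (−1.12 ± 0.44, adjusted p = 0.163). *GRN* was at −1.64 without sgCtrl pool 1 and at −0.25 without sgCtrl pool 2. *NPC1* and *NPC2*, which export cholesterol together, were at 0.91 and 0.32, and only *NPC1* was free of overlap (adjusted p = 0.285).

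The transcription factors did not pass the test. *TFEB* (chr6:41683978-41736259, minus strand) was sparsely counted, with 8 and 20 counts, or 2.48 and 5.92 CPM, in the control and 12, 11, and 14 counts, or 1.55, 1.97, and 2.42 CPM, in the knockout pools. All knockout pools lay below both controls, the highest by a narrow margin, and the log2-fold change was −1.09 ± 0.56 (adjusted p = 0.282). It was −1.57 without sgCtrl pool 1 and −0.31 without sgCtrl pool 2. *TFE3* (chrX:49028726-49043410, minus strand) was at 18.0 and 42.9 CPM in the control and at 17.0, 29.8, and 26.8 CPM in the knockout pools, with overlap (−0.32 ± 0.42, adjusted p = 0.696). *TFE3* was at −0.80 without sgCtrl pool 1 and at 0.47 without sgCtrl pool 2. The mRNA level does not report the amount of either factor in the nucleus, which is where they act.

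Set beside the E-boxes printed for the promoters, the 7 members with the flanked core had log2-fold changes from 0.08 to 1.33 with a median of 0.40, and none was called. They were *ATP6V1G1*, *LAMP1*, *GAA*, *ATP6V0B*, *CTSA*, *ATP6V0D1*, and *CTSD*, of which *CTSA*, *CTSD*, and *ATP6V0D1* turned negative without sgCtrl pool 1, *CTSD* also without sgMTSS1_3, *ATP6V0D1* with GC and length offsets, and *ATP6V0B* with these offsets and a block. The 18 tested members with a window but without this motif had a median of 0.15, a range from −1.12 to 2.04, 10 of 18 above 0, and 2 called, *ATP6V1E1* and *CD63*. Over all tested genes with a window, the median was −0.05 for the 710 with the flanked core and −0.02 for the 8978 without it, and 3.94% and 3.91% were called higher.

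The other genes of the pathway were followed in lists of known function, none of which holds a member. Of 123 genes, 122 were in the table and 103 were tested. Of these, 10 (9.71%) rose and 2 fell, against 4.17% and 1.01% of all genes tested. The median log2-fold change was 0.13. The lists were chosen with earlier results of these data known. Among the 10 is *MLST8*, which passed the filter on low counts only through the knockout pools. Among 9 tested V-ATPase subunits and assembly factors that are no members, 2 rose, and both are assembly factors of the V0 sector that act in the endoplasmic reticulum and early secretory pathway. *VMA21* was at 98.7 and 95.1 CPM in the control and at 297, 281, and 341 CPM in the knockout pools (1.66 ± 0.30, adjusted p = 0.0192). *CCDC115* was at 9.31 and 4.15 CPM in the control and at 47.1, 24.1, and 29.8 CPM in the knockout pools (2.32 ± 0.48, adjusted p = 0.0264). In both, all knockout pools lay at least 2-fold above both controls.

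Among 37 tested hydrolases and activators that are no members, 4 rose and 1 fell, against 4.17% and 1.01% of all genes tested. The median of this list was 0.43. Among the 4 that rose, 3 remove single sugars from glycans. *FUCA1*, an alpha-fucosidase, was at 13.0 and 8.29 CPM in the control and at 53.9, 40.9, and 55.4 CPM in the knockout pools (2.23 ± 0.36, adjusted p = 0.0136). *NEU1*, a sialidase, was at 8.69 and 12.4 CPM and at 55.3, 34.7, and 51.0 CPM (2.15 ± 0.37, adjusted p = 0.0165). *GLB1*, a beta-galactosidase, was at 23.9 and 33.8 CPM and at 89.4, 79.7, and 109 CPM (1.68 ± 0.33, adjusted p = 0.0233). For these 3 enzymes the lowest knockout pool was more than 2-fold above the higher control. *RNASET2*, an acid ribonuclease, was at 14.0 and 9.77 CPM and at 49.3, 26.2, and 53.3 CPM (1.85 ± 0.41, adjusted p = 0.0354). *ACP5*, a tartrate-resistant acid phosphatase of osteoclasts and macrophages, fell, from 59.6 and 74.9 CPM in the control to 14.1, 20.6, and 18.5 CPM in the knockout pools (−1.93 ± 0.31, adjusted p = 0.0131). The 3 monocyte and macrophage markers in the table were at 0 to 2.17 CPM in every library, and their part in this result was not tested.

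For the remaining lists the background is the same, with 4.17% of all genes tested called higher and 1.01% lower. Of 23 other lysosomal membrane proteins, 1 rose, and the median was 0.03. It was *LAPTM4A*, at 95.9 and 126 CPM in the control and 453, 306, and 312 CPM in the knockout pools (1.68 ± 0.34, adjusted p = 0.0259). Of 9 genes for sorting of lysosomal enzymes, 1 rose, and the median was −0.30. It was *NAGPA*, which uncovers the mannose 6-phosphate signal, at 3.10 and 2.67 CPM in the control and 12.8, 17.4, and 20.8 CPM in the knockout pools (2.54 ± 0.44, adjusted p = 0.0163). The mannose 6-phosphate receptors *IGF2R* and *M6PR* did not pass the test, at −0.36 and −0.30. Of 18 genes of the nutrient sensor at the lysosomal surface, 2 rose, with a median of 0.23. *RRAGA*, a Rag GTPase, was at 10.6 and 3.55 CPM in the control and at 35.5, 23.7, and 31.5 CPM in the knockout pools (2.10 ± 0.48, adjusted p = 0.0383). *MLST8*, a subunit of the mTOR complexes, had 2 counts in each control and 67, 38, and 52 counts in the knockout pools, which gives a ratio of 13.6 over the summed counts with a 95% exact counting interval from 5.19 to 50.4 (adjusted p = 0.0131). Its control counts are below the 3 counts taken as the detection limit, so that it passed the filter on low counts only through the knockout pools. Neither *MLST8* nor *NAGPA*, with 10 and 9 counts in the controls, could be tested when at least 10 counts were required in every library. Of 7 other MiT/TFE factors and autophagy targets, 1 fell and none rose. It was *SQSTM1*, the autophagy receptor p62 and a known TFEB target, at 108 and 159 CPM in the control and 41.9, 50.6, and 40.1 CPM in the knockout pools (−1.60 ± 0.30, adjusted p = 0.0209).

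Of these 12 calls, 7 were kept without sgMTSS1_2. Without sgMTSS1_3, 2 remained, *FUCA1* and *MLST8*, of which *MLST8* passed the filter on low counts only through the knockout pools. Without sgMTSS1_1, only *NAGPA* remained. Across these settings the log2-fold changes of the 12 genes kept their direction, and without sgMTSS1_1 the adjusted p of those lost was between 0.0591 and 0.127. In all genes tested, 107 were called higher without sgMTSS1_1, 323 without sgMTSS1_2, and 183 without sgMTSS1_3, against 600 with all pools. Leaving out a knockout pool thus lowered the calls over all genes as well. *NEU1* and *NAGPA* had the flanked core in a promoter window, while *VMA21*, *GLB1*, *FUCA1*, *RNASET2*, *LAPTM4A*, *ACP5*, and *SQSTM1* did not, and *CCDC115*, *RRAGA*, and *MLST8* did not match.

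**Figure D5:**
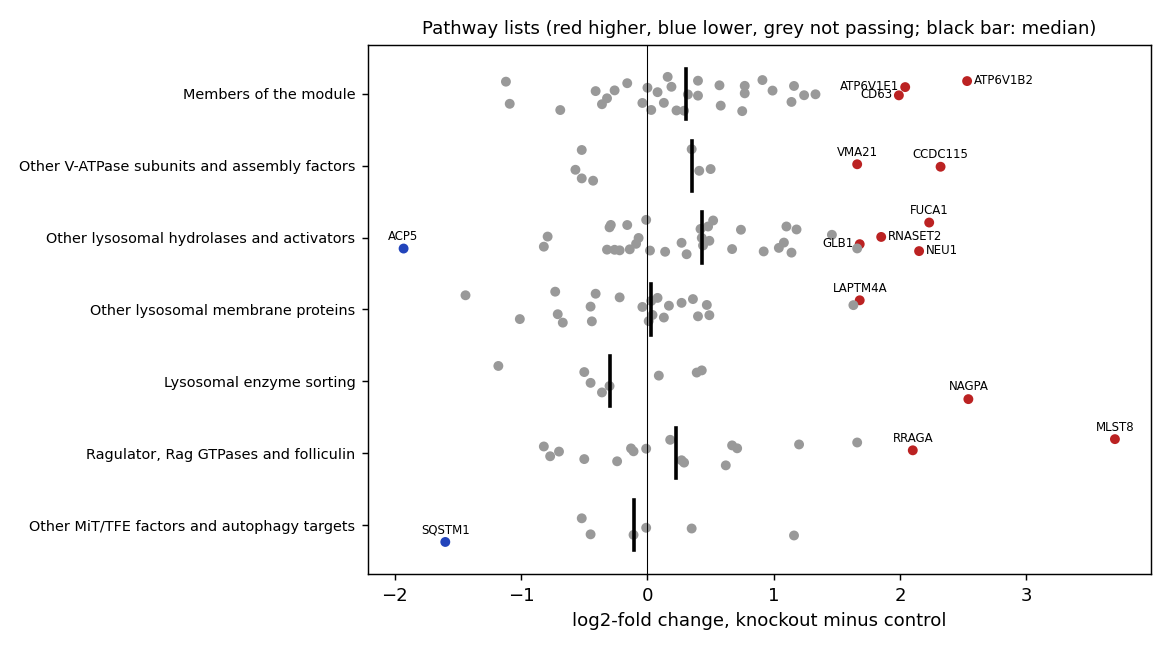
Log2-fold changes (x axis, knockout minus control) of each tested gene in the members and in 6 lists of other pathway genes, with a black bar at the median of each list. Genes called higher are red, genes called lower blue, and the medians lie between −0.30 for enzyme sorting and 0.43 for the other hydrolases.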

How the data were processed

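The authors prepared libraries with a QuantSeq 3′ kit, removed adapters (BBDuk), checked the reads (FastQC 0.11.9), mapped them to GRCh38 (HISAT2 2.1.0), and discarded those with several positions (SAMtools 1.10). The deposited values are raw whole-number counts for each Ensembl gene. The authors had left out sgCtrl pool 3 and the sgMTSS1_4 pool as outliers. The counting program, annotation, and use of strand are not given in the sources used here. Removing multiply mapped reads lowers the counts of genes with near-identical copies. In 3′ libraries counts follow the number of molecules, so that CPM needs no length scaling.

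The test was run in edgeR 4.0.16 (R 4.3.3): filterByExpr (minimum count 10), TMM, and the quasi-likelihood test of knockout against control over all 5 libraries, with Benjamini-Hochberg adjustment over 14391 genes. The F statistic and the fold change gave the standard error. On simulated data, the edgeR fit recovered 50% of 200 genes given a log2 change of 2, and 3 unchanged genes were called. A gene that was not called here may thus still differ between the groups. P-values measure the spread between pools, and no library was a duplicate of another. With 1 control pool left out, this spread comes from the knockout pools alone. Only fold changes are then given, apart from the upper ends of the ranges of calls over all genes. Symbols and positions came from GENCODE release 44, which holds 27211 of the 27328 genes.

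The members and lists were chosen with earlier results of these data known. Named in full, by rule, were members with an adjusted p below 0.05, *TFEB*, *TFE3*, the 3 highest by mean CPM, the 3 with the largest fold change in each direction among those without overlap between the groups, every called pathway gene up to 5 per list, and *MTSS1*. Values in every pool are also given for some further members, both with and without overlap between the groups. Alternatives were DESeq2 1.42.0, limma-voom (limma 3.58.1), robust estimation, other scaling factors, other filters, thinning to the smallest total, GC and length offsets (mgcv 1.9.3), a replicate block, and leaving out each replicate.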

Additional observations from a re-analysis of the deposited data

How the results depend on the processing

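*ATP6V1B2* was called under every alternative with both control pools. The same 3 members were called with library size alone, RLE, upper-quartile scaling, at least 10 counts in every library, limma-voom, robust estimation, thinning, the replicate block with GC and length offsets, and no fold threshold. Without the filter and with DESeq2, 6 were called higher, with *ATP6V0E1*, *ATP6V1G1*, and *PSAP* added. With the replicate block, 5 were called, with *ATP6V0E1* and *ATP6V1G1* added. With GC and length offsets, 1 member was called lower, *ATP6V1F*. When 1 knockout pool was left out, 1 to 3 members were called higher and 0 lower, with or without the fold threshold. Their median log2-fold change was 0.15 with library size alone, 0.44 without the filter, 0.10 with GC and length offsets, and 0.25 to 0.57 with 1 replicate left out. For V-ATPase genes it was 0.38 with limma-voom, 0.09 with library size alone, 0.03 with GC and length offsets, 0.10 with the block and offsets, and 0.16 to 0.74 with 1 replicate left out, and for the others 0.25 to 0.56. The median of all genes moved from −0.03 to −0.17 with library size alone and to 0.11 without the filter. Over all genes, 1173 were called higher without the filter and 1010 higher and 333 lower with DESeq2, 232 lower with library size alone, and 223 lower with the block and offsets. With GC and length offsets, 595 were called higher and 365 lower, against 600 and 145. Leaving out 1 replicate gave 107 to 917 higher and 4 to 432 lower. The upper ends of both ranges come from the fit without sgCtrl pool 1, which has 1 control pool. The spread between controls is not measured there, so no conclusion is drawn from these upper ends. With 1 knockout pool left out, 107 to 323 genes were called higher and 4 to 24 lower. *MTSS1* ranged from −1.04 to 0.16, positive without control replicate 1.

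Some members changed sign between settings. *ATP6V0A1* was at −0.13 with library size alone, −0.01 with RLE, DESeq2, and limma-voom, −0.08 with upper-quartile scaling, −0.03 thinned, −0.16 with the block, −0.11 with GC and length offsets, and −0.23 with both. *ATP6V1A* was at −0.13 with library size alone and −0.06 with upper-quartile scaling. *CTSL* was at −0.07, −0.06, and −0.14 with library size alone, limma-voom, and the offsets. *ATP6AP2* was at 0.11 without the filter, 0.01 with at least 10 counts, 0.22 with limma-voom, 0.29 with the block, and 0.10 with both. *ATP6V0D1* was at −0.03 with the offsets and −0.02 with both, and *ATP6V0B* at −0.03 with both. With 1 replicate left out, members changed sign within these ranges: *ATP6V1A* −0.26 to 0.45, *ATP6V1C1* −0.73 to 0.04, *ATP6V0A1* −0.11 to 0.12, *ATP6V0D1* −0.34 to 1.10, *ATP6AP1* −0.47 to 1.37, *ATP6AP2* −0.66 to 1.16, *CTSA* −0.14 to 0.80, *CTSC* −0.01 to 1.04, *CTSD* −0.64 to 1.68, *CTSH* −0.59 to 0.22, *CTSL* −0.62 to 0.52, and *TFE3* −0.80 to 0.47. The cause was not tested.

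The replicate numbers 1 and 2 occur in both groups, but nothing says that such pools were handled together. Deviations from the group means correlated across genes at 0.196 for number 1 and 0.108 for number 2. For sgMTSS1_3, which has no control of its number, the correlation with sgCtrl pool 2 was 0.135. With 2 controls the deviations mirror each other, so that these values cannot decide on pairing. With only 2 pairs, the numbers were not taken as pairing. The block called 894 genes higher and 200 lower. Depth limits *TFEB*, *CTSZ*, *CTSA*, *NPC1*, and *GAA*, whose control counts were at most 20.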
